A study of Mus musculus with 14 samples.

Results

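The response to epidermal growth factor (EGF) was compared between neural stem cell cultures with and without the repressor capicua. Within each culture the array of cells kept without EGF was subtracted from the array of cells kept with it, and the resulting differences of 3 Cic-/- clones were set against those of 4 Cic+/+ clones. All 14 of the 14 arrays of the study entered, which gave 7 clone differences. The cells had been taken at postnatal day 4 from the subventricular zone, with 1 mouse per clone. Clones 1 to 4 were of the wild-type control genotype (Cic+/+), clones 5 to 7 carried the conditional allele (Cicflox/flox, called Cic-/- after recombination), and all 7 were transduced with an adenovirus carrying Cre, so the controls had received the virus and the recombinase too. Each clone was kept for 24 h in NeuroCult proliferation medium with EGF (EGF+) and for 24 h in the same medium without it (EGF-). The model is a single time point in cultured cells, and each clone stands for 1 animal.

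Capicua, encoded by Cic, is a DNA-binding repressor of the HMG-box family. Signalling from receptor tyrosine kinases such as the EGF receptor passes through RAS and ERK, and active ERK relieves repression by capicua. In the postnatal subventricular zone EGF keeps stem cells and progenitors dividing. When it is withdrawn, part of the cells leave the cycle and begin to make astrocytes, neurons or oligodendrocytes, the cells that wrap axons in myelin.

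Values are log2 levels, and a gene's level is the median of its probesets, which are groups of probes within 1 stretch of a transcript. The EGF effect is EGF+ minus EGF-, so a negative effect means a lower level with EGF, which is the same as a higher level after EGF was taken away. Subtracting the EGF effect in Cic+/+ from that in Cic-/- gives the interaction, printed ± SE, and genes with an adjusted p under 0.05, over all 17364 genes tested, are said to pass. The array medians lay between 6.49 and 6.54, and the number of arrays limits the precision. Cic itself was lower in the Cic-/- clones in both media, between 7.04 and 7.67 against 9.18 to 9.69 in Cic+/+, and its EGF effect did not pass in either genotype (0.08 ± 0.12 and 0.27 ± 0.13, adjusted p = 0.765 and 0.332). Clone 4 alone had a low level of Xist, the RNA of the inactive X chromosome, with 4.73 and 3.83 in its EGF+ and EGF- arrays where the other clones had 11.96 to 12.57. Over all genes, the SD of a clone's EGF differences lay between 0.398 and 0.496 in Cic+/+ and between 0.404 and 0.524 in Cic-/-, ranges that overlap.

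Only 3 of the 17364 genes (0.0173%) passed the interaction test, all 3 in the positive direction. These were Enpp6, Mag and Tmem163. No gene passed in the negative direction. At an unadjusted p under 0.05 the same limma fit gave 1105 genes (6.36%), of which 613 were positive (3.53%) and 492 negative (2.83%). The clone differences of the genotypes did not overlap in 592 genes in the positive direction (3.41%) and in 494 in the negative direction (2.84%). In a given direction, 1 of the 35 ways to choose 3 of 7 clones gives no overlap, so lack of overlap alone is weak evidence. The median interaction over all genes was 0.01. The genes described here include 80 with an unadjusted p under 0.05, and in many of them the size of the interaction depended on the probesets used. With the brightest probeset alone, 48 of the 78 that could be compared were smaller by over 1.5 times, 13 of them with the opposite sign, and 3 were larger by over 1.5 times. With the mean over probesets 30 of the 80 were smaller by over 1.5 times and 0 larger.

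**Figure D1:**
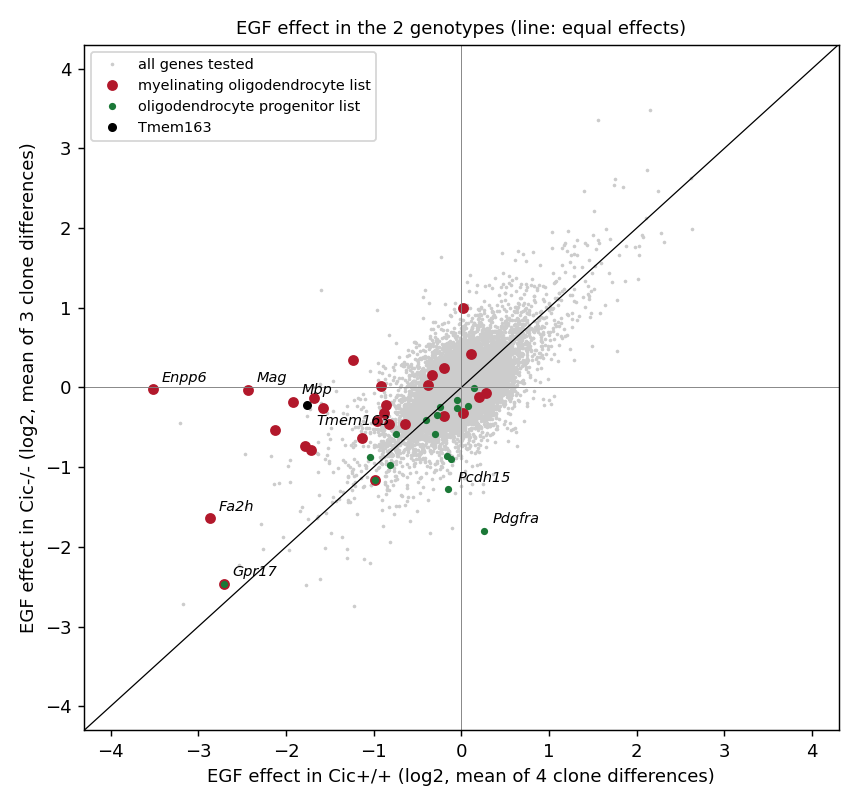
EGF effect of each of the 17364 genes in Cic+/+ (horizontal axis, log2, mean of 4 clone differences) and in Cic-/- (vertical axis, log2, mean of 3 clone differences); the diagonal line marks equal effects, red points the myelinating oligodendrocyte list and green points the oligodendrocyte progenitor list. Enpp6 and Mag lie at -3.52 and -2.43 on the horizontal axis and near 0 on the vertical axis, Gpr17 lies near the line, and Pdgfra lies below it.

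Enpp6, a choline phosphodiesterase that marks newly formed oligodendrocytes, had the largest interaction of all genes tested. In Cic+/+ its level was 5.21, 4.97, 4.70 and 5.07 with EGF in clones 1 to 4, and 8.52, 8.49, 8.67 and 8.34 without EGF. In Cic-/- it was 4.32, 4.55 and 4.76 with EGF in clones 5 to 7, and 3.99, 4.85 and 4.83 without. Only the Cic+/+ arrays without EGF were high, and they did not overlap with any other group. EGF lowered Enpp6 in Cic+/+ (EGF effect -3.52 ± 0.15, 11.4-fold, adjusted p = 3.75e-06), while the effect in Cic-/- was -0.02 ± 0.18 (adjusted p = 0.974). The interaction was 3.50 ± 0.23, or 11.3-fold, with a 95% interval from 2.98 to 4.01 (adjusted p = 0.000309). Of its 12 probesets, 11 were positive and 9 exceeded 1. An exact two-sided permutation test over the 35 ways to choose 3 of 7 clones gave p = 0.0571, the smallest value this design allows for any single gene.

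Mag encodes myelin-associated glycoprotein, an adhesion molecule of the myelin sheath that faces the axon. Its level in Cic+/+ was 4.36, 4.07, 4.31 and 5.11 with EGF and 6.82, 6.48, 6.83 and 7.45 without. In Cic-/- it was 4.37, 4.37 and 4.17 with EGF and 4.54, 4.56 and 3.88 without. As for Enpp6, the 4 Cic+/+ arrays without EGF stood above the 10 others. EGF lowered Mag 5.40-fold in Cic+/+ (-2.43 ± 0.12, adjusted p = 8.92e-06), whereas its effect on the Cic-/- clones was -0.03 ± 0.14 (adjusted p = 0.953). The interaction was 2.41 ± 0.19, or 5.30-fold, with a 95% interval from 1.99 to 2.82 (adjusted p = 0.000744), and 14 of 15 probesets exceeded 1. Both genes passed whichever clone was left out. With the clones' pairing ignored, Enpp6 passed (adjusted p = 0.000147) and Mag did not (adjusted p = 0.0874). Their levels with EGF, and in Cic-/- in either medium, lay between 3.88 and 5.21. That is near 4.40, the level under which genes were set aside as dim. A further decrease there may have been measured poorly, which was not tested. With only the brightest probeset of each gene, no gene passed, 959 genes had an unadjusted p under 0.05, and Enpp6 and Mag were at 2.58 and 2.13 (adjusted p = 0.387 for both).

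Tmem163, a zinc-transporting membrane protein of vesicles, passed by a small margin. In Cic+/+ its level was 5.63, 5.58, 6.29 and 6.26 with EGF and 7.57, 7.48, 7.75 and 8.0 without. In Cic-/- it was 5.70, 5.66 and 5.78 with EGF and 6.07, 5.72 and 6.02 without. The Cic+/+ arrays without EGF were again the high ones. The EGF effects were -1.76 ± 0.13 and -0.22 ± 0.15 (adjusted p = 0.000128 and 0.491), and the interaction was 1.53 ± 0.19 (adjusted p = 0.049). Of 12 probesets 7 exceeded 1 and 3 were below 0, and the brightest one was at -0.19. The gene no longer passed when any 1 of the 7 clones was left out (adjusted p from 0.0742 to 0.198).

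**Figure D2:**
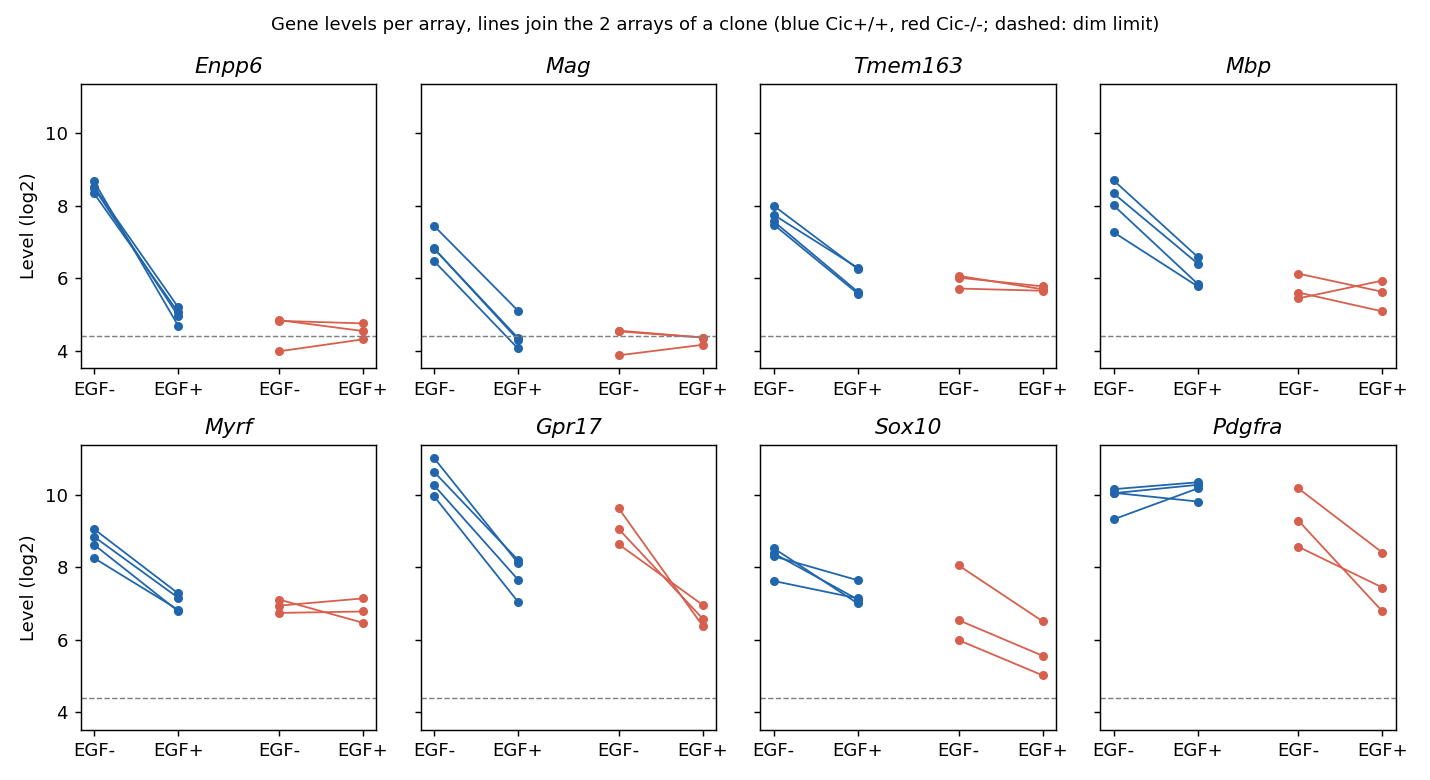
Log2 level of 8 genes in every array, with blue circles for Cic+/+ clones and red circles for Cic-/- clones. Lines join the EGF+ and EGF- arrays of a clone, and the dashed line marks the dim limit. For Enpp6 and Mag the lines of the 4 Cic+/+ clones rise steeply from EGF+ to EGF- and those of the 3 Cic-/- clones stay flat, whereas for Gpr17 and Sox10 the lines of both genotypes rise.

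The stretches of DNA just before the start sites of these genes are shown because capicua acts by binding DNA at its octamer, and they let a reader see what lies there. RefSeq windows of 250 bases before the start (GRCm38.p6) were held for 11 of the 16 genes that passed or had the smallest p without overlap between genotypes, 16 windows in all. They were searched on both strands for the octamer words TGAATGAA, TGAATGGA, TCAATGAA and TCAATGGA, which 3.19% of 32851 such windows hold, and for the FoxO word GTAAACA, which 3.17% hold. Neither Enpp6 (chr8:46986637-46986886, plus strand) nor Mag (3 start sites, of which the window chr7:30914864-30915113 on the minus strand is printed) held any of these words. Among the genes not passing, Ptpn5, described further on, held 1 octamer word in 1 of its windows (chr7:47132599-47132848, minus strand), starting 220 bases before the start and shown in capitals. FoxO words were found in none of the 16 windows. A match describes these letters alone.
Enpp6: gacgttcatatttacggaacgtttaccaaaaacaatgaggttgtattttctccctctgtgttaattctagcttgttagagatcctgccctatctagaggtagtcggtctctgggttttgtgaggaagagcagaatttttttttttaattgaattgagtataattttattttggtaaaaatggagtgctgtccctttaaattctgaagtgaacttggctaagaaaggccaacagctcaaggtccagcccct
Mag: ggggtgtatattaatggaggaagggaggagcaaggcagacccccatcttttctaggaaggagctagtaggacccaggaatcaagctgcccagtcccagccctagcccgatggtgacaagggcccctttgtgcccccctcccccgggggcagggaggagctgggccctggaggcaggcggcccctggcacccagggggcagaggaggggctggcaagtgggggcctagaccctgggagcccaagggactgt
Ptpn5: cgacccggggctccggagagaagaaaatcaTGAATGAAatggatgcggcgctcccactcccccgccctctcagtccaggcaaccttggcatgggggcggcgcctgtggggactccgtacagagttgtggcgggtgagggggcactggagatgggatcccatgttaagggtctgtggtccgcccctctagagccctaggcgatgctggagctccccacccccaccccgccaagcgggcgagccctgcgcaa

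Beneath the threshold, the positive genes with the smallest p and without overlap between genotypes were Cdk18, Myrf, Cbln2, Mbp and Igfbp7, and none of them passed. Cdk18, a cyclin-dependent kinase of the PCTAIRE group, missed narrowly (1.54 ± 0.20, adjusted p = 0.051), with EGF effects of -1.46 in Cic+/+ and 0.08 in Cic-/-. Myrf is the membrane-tethered transcription factor that switches on myelin genes. Its level in Cic+/+ was 6.83, 7.16, 7.28 and 6.79 with EGF and 8.25, 8.84, 9.05 and 8.62 without. In Cic-/- Myrf was at 7.14, 6.47 and 6.78 with EGF and at 6.94, 7.11 and 6.74 after its removal. The interaction of Myrf was 1.54 ± 0.23 (adjusted p = 0.121), with 17 of 23 probesets above 1, and it passed when clone 6 was left out (1.80, adjusted p = 0.0497) but not without any other clone (adjusted p up to 0.373). Mbp, myelin basic protein, lay at 5.78, 5.85, 6.41 and 6.59 with EGF and 7.27, 8.01, 8.34 and 8.70 without in Cic+/+. In Cic-/- Mbp lay at 5.94, 5.63 and 5.09 with EGF and 5.45, 6.13 and 5.61 without, so all arrays but the Cic+/+ ones without EGF were at 6.59 or lower. All 17 Mbp probesets were positive and 13 exceeded 1 (interaction 1.74 ± 0.28, adjusted p = 0.121). Cbln2, a secreted organizer of synapses, had differences of -1.89, -2.03, -1.86 and -0.97 in Cic+/+ and -0.08, 0.17 and -0.06 in Cic-/- (1.70 ± 0.26, adjusted p = 0.121), and it passed without clone 4 (1.94, adjusted p = 0.0128) but not without any other clone (adjusted p up to 0.377). Igfbp7, a secreted protein related to the IGF-binding proteins, differed from the others in kind. EGF raised it in Cic-/- (1.69 ± 0.16, 3.22-fold, adjusted p = 0.0011), against 0.46 ± 0.13 in Cic+/+ (adjusted p = 0.0746), and the interaction was 1.23 ± 0.21 (adjusted p = 0.121). The size of these interactions depended on how probesets were joined. By the brightest probeset alone Cdk18 was at 0.51, Myrf at 0.51, Cbln2 at 0.97, Igfbp7 at 0.42 and Mbp at 3.08, and none passed. With the mean over probesets Cdk18 and Mbp passed (1.82 and 2.02, adjusted p = 0.00128 and 0.00331).

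The 5 genes whose 7 clone differences lay closest to those of Enpp6, by Euclidean distance, were Mag (2.30), Gpr83 (2.67), 9630013A20Rik (2.67), Nfasc (3.05) and Abhd3 (3.13). Gpr83, an orphan receptor coupled to G proteins, had differences of -1.09, -4.54, -3.81 and -3.39 in Cic+/+ and 0.03, -1.32 and -0.06 in Cic-/-. Clone 1 was the smallest of the Cic+/+ differences and overlapped with clone 6. The interaction of Gpr83 was 2.76 ± 0.68 (adjusted p = 0.387), and 3.46 without clone 1 (adjusted p = 0.048), the only clone whose omission let it pass. Nfasc, neurofascin, an adhesion molecule found around the node of Ranvier, had an interaction of 1.59 ± 0.29 (adjusted p = 0.164), with all 27 probesets positive and 0.36 with the brightest one. Abhd3, a phospholipase, was at 1.31 ± 0.28 (adjusted p = 0.284) and 9630013A20Rik at 1.63 ± 0.28 (adjusted p = 0.131).

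Genes of myelinating oligodendrocytes were examined as a list of 30, of which 28 were tested. Ermn was dim. Enpp6 and Mag are members of the list, which was written with earlier results of these data known, so its counts are no independent support. Passing the interaction were 2 of 28, Enpp6 and Mag, and at an unadjusted p under 0.05 there were 14 positive and 0 negative members, against 3.53% and 2.83% of all genes. The median interaction was 0.56, against 0.01 over all genes, and 23 of 28 were positive (all genes: 8997 of 17364). EGF lowered 17 of the 28 in Cic+/+ (all genes: 3.28%) and 4 of the 28 in Cic-/- (all genes: 1.6%), with median effects of -0.94 and -0.23. By clone the list median was -0.60, -1.04, -1.17 and -1.18 in Cic+/+ and -0.16, -0.37 and -0.30 in Cic-/-, which does not overlap. Clone 1 was nearest to the Cic-/- clones, and without it the median interaction of the list was 0.80. The mean level of the 29 measured members lay between 6.44 and 6.55 in Cic+/+ and 6.24 and 6.52 in Cic-/- with EGF, and between 7.39 and 7.71 in Cic+/+ and 6.57 and 6.89 in Cic-/- without it. In bulk RNA, fewer oligodendrocytes and less of these transcripts per cell cannot be told apart.

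The members named next, except Bmp4, were chosen after their values were seen, and none passed the interaction. Fa2h, Ugt8a and Gal3st1 are enzymes that make the galactolipids of myelin. Of these 3 enzymes Fa2h, which hydroxylates the fatty acid, had the largest response in Cic-/-. EGF lowered it in both genotypes, with effects of -2.87 ± 0.25 in Cic+/+ and -1.64 ± 0.29 in Cic-/- (adjusted p = 0.000267 and 0.0148), and the interaction was 1.23 ± 0.38 (adjusted p = 0.572). Ugt8a, which adds galactose to ceramide, fell with EGF in Cic+/+ (-1.71 ± 0.17, adjusted p = 0.000436) against -0.78 ± 0.19 in Cic-/- (adjusted p = 0.06). Gal3st1, which makes sulfatide, fell with EGF in both genotypes (-1.78 ± 0.14 and -0.73 ± 0.16, adjusted p = 0.000157 and 0.0391). Cldn11, the claudin of myelin tight junctions, had all 5 probesets above 1. Its differences were -1.37, -0.37, -1.66 and -1.54 in Cic+/+ and 0.96, 0.07 and 0.00 in Cic-/- (interaction 1.58 ± 0.34, adjusted p = 0.31). Bmp4, a ligand that newly formed oligodendrocytes also make, was at 1.33 ± 0.32 (adjusted p = 0.387), the deacetylase Sirt2 at 0.54 ± 0.17 (adjusted p = 0.57), the connexin Gjc3 at 0.65 and Tmem88b at 0.94. Opalin, a transmembrane protein of oligodendrocytes, differed from these, with an EGF effect of 0.01 ± 0.24 in Cic+/+ and 1.00 ± 0.28 in Cic-/-, neither of which passed, and its interaction was 0.99 ± 0.37 (adjusted p = 0.689). With the brightest probeset the interactions of Fa2h and Opalin turned to -0.12 and -0.52. The 5 members with a negative interaction were Mobp, Tspan2, Cntn2, Plekhb1 and Sox10, the last described below. The EGF effects of the first 4 were -0.20, 0.21, 0.28 and 0.02 in Cic+/+, and -0.36, -0.13, -0.07 and -0.32 in Cic-/-. The median of the probesets' own interactions was positive for Tspan2 (0.30) and Cntn2 (0.008).

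Of earlier genes of the lineage, those described next were also chosen after their values were seen, and Gpr17, Sox10 and Neu4 fell with EGF in both genotypes. Gpr17, a receptor of precursors that are committed to differentiate, was lower with EGF in every clone. Its differences were -2.92, -2.89, -2.44 and -2.60 in Cic+/+ and -2.47, -3.24 and -1.67 in Cic-/-, which overlap. EGF lowered it in both genotypes (-2.71 ± 0.21 and -2.46 ± 0.24, adjusted p = 0.000157 and 0.00127), and the interaction was 0.25 ± 0.32 with a 95% interval from -0.46 to 0.96. Sox10, a transcription factor of the lineage, also fell with EGF in both (-0.98 ± 0.18 and -1.16 ± 0.21, adjusted p = 0.0125 and 0.0179), with an interaction of -0.18 and a 95% interval from -0.80 to 0.43. Neu4, a sialidase, likewise fell in both (-1.04 ± 0.15 and -0.88 ± 0.18, adjusted p = 0.0039 and 0.0265), with an interaction of 0.16 and a 95% interval from -0.35 to 0.68. With the brightest probeset Gpr17 was at -0.90 and Sox10 at 0.37, so their interactions have no settled sign. Olig1 and Olig2, the factors that keep the lineage, were high in all arrays (12.03 to 12.85), their EGF effects did not pass in either genotype, and their interactions were -0.11 ± 0.20 and -0.15 ± 0.19.

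**Figure D3:**
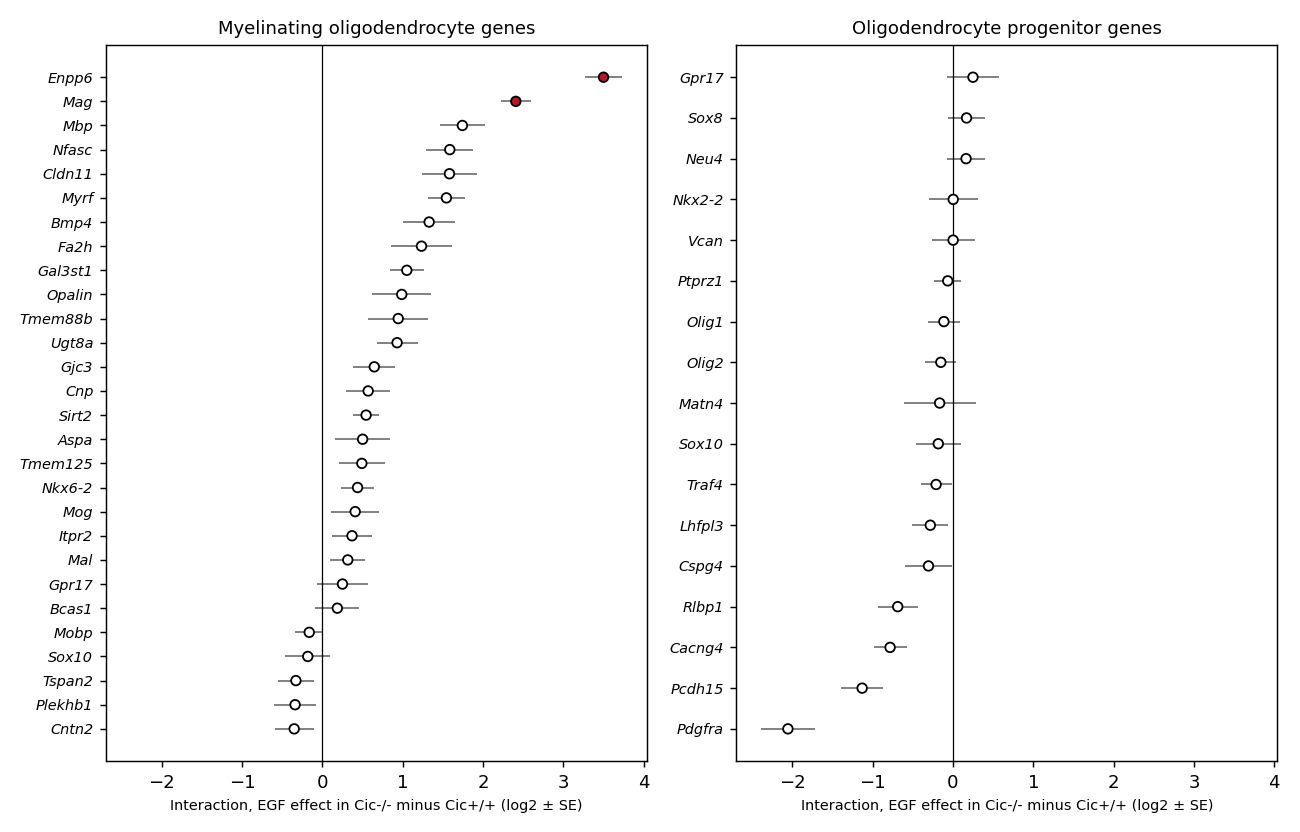
Interaction of each tested member of the myelinating oligodendrocyte list (left) and the oligodendrocyte progenitor list (right), in log2 ± SE. In the first list 23 of 28 members lie right of 0 (all genes: 8997 of 17364), led by Enpp6 at 3.50 and Mag at 2.41. In the second 12 of 17 lie left of 0 (all genes: 8341 of 17364), led by Pdgfra at -2.06.

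Mir219a-2, chosen after its values were seen, encodes a precursor of miR-219a, a microRNA that promotes oligodendrocyte differentiation. The array measured the locus with 1 probeset and did not measure the mature microRNA. Its level in Cic+/+ was 5.54, 5.31, 5.53 and 5.66 with EGF and 6.51, 6.35, 6.21 and 7.14 without, and in Cic-/- 5.61, 5.77 and 5.44 with and 5.34, 5.36 and 5.51 without. As for Enpp6, only the Cic+/+ arrays without EGF were raised (EGF effects -1.04 ± 0.15 and 0.20 ± 0.17, adjusted p = 0.00326 and 0.61). The interaction was 1.24 ± 0.23 (adjusted p = 0.158). The mature sequence is printed to identify the microRNA, from RefSeq (GRCm38.p6, chr2:29845689-29845709, minus strand), with the seed, bases 2 to 8, in capitals.
mmu-miR-219a-5p: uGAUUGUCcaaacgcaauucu

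In the negative direction no gene passed, and the genes named here are the 8 with the smallest p and no overlap between genotypes. Pdgfra, the PDGF receptor whose signal drives division of oligodendrocyte progenitors, had the lowest interaction of all genes tested. Its level in Cic+/+ was 9.81, 10.34, 10.17 and 10.27 with EGF and 10.05, 10.15, 9.32 and 10.04 without. In Cic-/- it was 7.44, 8.40 and 6.78 with EGF and 8.56, 10.17 and 9.28 without. The low arrays were thus those of Cic-/- clones with EGF, which lay under all others. EGF lowered Pdgfra in Cic-/- (-1.80 ± 0.25, 3.47-fold, adjusted p = 0.00532), against 0.26 ± 0.22 in Cic+/+ (adjusted p = 0.562). The interaction was -2.06 ± 0.34, 95% interval from -2.80 to -1.32 (adjusted p = 0.121). All 17 probesets were below -1. With the mean over probesets in place of the median it passed (-2.16, adjusted p = 0.0336).

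In the other 7 the EGF effect was likewise more negative in each Cic-/- clone than in any Cic+/+ clone, which is how they were chosen. Ptprd, a receptor phosphatase of synapses, had differences of 0.66, 0.18, 0.07 and 0.08 in Cic+/+ and -0.80, -1.64 and -1.50 in Cic-/- (-1.56 ± 0.25, adjusted p = 0.121). Its probesets were divided, with 22 of 44 below -1 and 9 above 0. Stmn3, which destabilizes microtubules, had differences of 0.03, -0.18, 0.32 and 0.33 against -0.94, -1.18 and -1.52 (-1.34 ± 0.21, adjusted p = 0.121). Bmp3, a BMP ligand, was at -1.24 ± 0.21 (adjusted p = 0.121). Clone 5 stood high in both media, at 7.42 (EGF+) and 8.36 (EGF-), since clones 6 and 7 had 5.15 to 6.71. Ptpn5, the striatal-enriched phosphatase whose promoter window is printed above, fell with EGF in both genotypes (-0.50 ± 0.12 in Cic+/+ and -1.55 ± 0.13 in Cic-/-, adjusted p = 0.0311 and 0.000922), with an interaction of -1.05 ± 0.18 (adjusted p = 0.121). Usp29, an imprinted deubiquitinase, had opposite signs, at 0.64 ± 0.17 and -0.73 ± 0.19, neither of which passed (interaction -1.36 ± 0.25, adjusted p = 0.164). Oprl1, the nociceptin receptor, was at -1.25 ± 0.23 (adjusted p = 0.166), and Akap6, an anchor of protein kinase A, at -1.21 ± 0.24 (adjusted p = 0.219). Other ways of joining the probesets gave values smaller by over 1.5 times for Usp29, Bmp3, Oprl1, Akap6, Ptprd and Ptpn5. The median of the probesets' own interactions was -0.43 for Usp29 (1 of 8 below -1), -0.61 for Bmp3, -0.83 for Oprl1, -0.74 for Akap6 and -0.99 for Ptprd. On the brightest probeset alone Usp29 was at -0.35, Bmp3 at -0.22, Oprl1 at -0.48, Akap6 at -0.80 and Ptpn5 at -0.53.

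**Figure D4:**
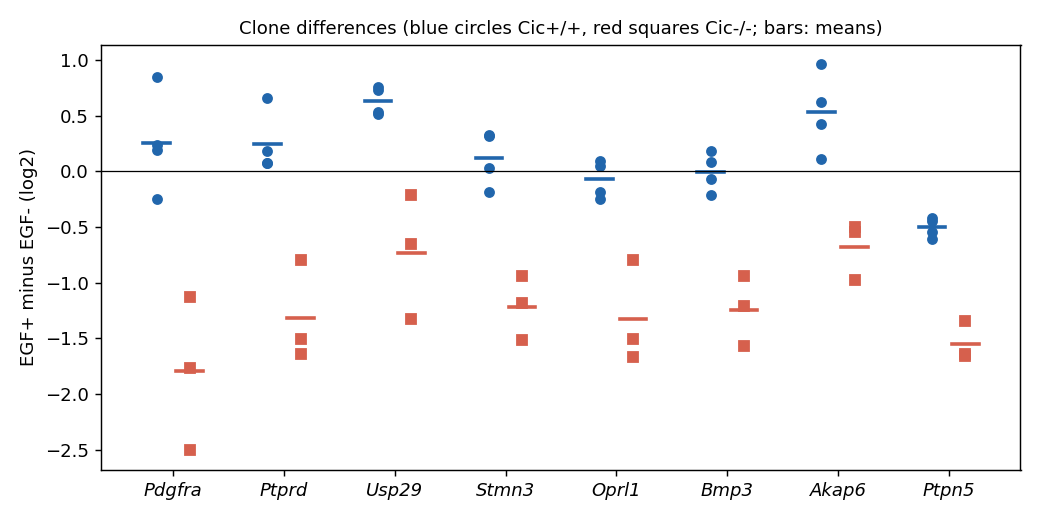
Clone differences (EGF+ minus EGF-, log2) of the 8 genes named in the negative direction, with blue circles for the 4 Cic+/+ clones, red squares for the 3 Cic-/- clones and bars for their means. In each gene the Cic-/- clones lie below all Cic+/+ clones, a property by which these genes were chosen, and Pdgfra spans from 0.84 in clone 3 to -2.50 in clone 7.

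The oligodendrocyte progenitor list held 17 tested genes, and 0 of them passed the interaction by limma. At an unadjusted p under 0.05 there were 0 positive members and 4 negative ones (all genes: 3.53% and 2.83%), Pdgfra, Pcdh15, Cacng4 and Rlbp1. EGF lowered 4 of the 17 in Cic+/+ and 7 in Cic-/- (all genes: 3.28% and 1.6%), and the median interaction was -0.17. Pcdh15, a cadherin of the progenitor surface, fell with EGF in Cic-/- (-1.28 ± 0.20, adjusted p = 0.0092) and was at -0.15 ± 0.17 in Cic+/+ (interaction -1.13 ± 0.27, adjusted p = 0.371). Of its 44 probesets, 43 were below 0. Cacng4, an auxiliary subunit of AMPA receptors, fell in Cic-/- (-0.90 ± 0.16, adjusted p = 0.0147) and was at -0.11 ± 0.14 in Cic+/+ (interaction -0.78 ± 0.21, adjusted p = 0.436). Rlbp1, a retinaldehyde-binding protein named after its values were seen, was at -0.69 ± 0.25 (adjusted p = 0.675). By clone the list median was -0.24, -0.42, -0.27 and -0.12 in Cic+/+ and -0.47, -0.94 and -0.78 in Cic-/-, which does not overlap, though clone 2 lay close to clone 5. The mean level of the list was 8.62 to 8.98 in Cic-/- with EGF, against 9.10 to 9.44 in Cic+/+ with EGF and 9.35 to 9.98 in both genotypes without it.

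Cell division genes had mostly negative interactions, none of which passed. Of 31 tested mitosis genes 0 passed, and the median was -0.47. All 31 were negative (all genes: 8341 of 17364), 8 of them at an unadjusted p under 0.05 (all genes: 2.83%). The EGF effect had a list median of 0.39 in Cic+/+ and -0.11 in Cic-/-. By clone it was 0.11, 0.78, 0.11 and 0.65 in Cic+/+ and 0.15, -0.05 and -0.36 in Cic-/-, so that clone 5 overlapped with clones 1 and 3. Mki67, the proliferation antigen, had differences of 0.20, 0.58, 0.14 and 0.70 against -0.22, -0.05 and -0.43 (-0.64 ± 0.21, adjusted p = 0.613). The spindle checkpoint gene Mad2l1 was at -0.65 ± 0.20 (adjusted p = 0.582) and cyclin A2, Ccna2, at -0.60 ± 0.22 (adjusted p = 0.679). The 39 tested DNA replication genes had a median of -0.29, with 34 negative (all genes: 8341 of 17364) and 0 passing. At an unadjusted p under 0.05 there were 2 negative members (all genes: 2.83%). These were Rrm1, a subunit of ribonucleotide reductase (-0.54), and the flap endonuclease Fen1 (-0.71, and -0.36 without clone 5). By clone the median EGF difference of the replication list was 0.29, 0.65, 0.37 and 0.52 in Cic+/+. In Cic-/- it was -0.17, 0.72 and 0.03, so that clone 6 lay above all Cic+/+ clones. Members of these lists vary together within a clone, so their number is no measure of certainty. Cdkn1c, an inhibitor of cyclin-dependent kinases, led the G1 control list in the positive direction. EGF lowered it in Cic+/+ (-1.72 ± 0.24, adjusted p = 0.0032) and it was at -0.27 ± 0.28 in Cic-/- (interaction 1.45 ± 0.37, adjusted p = 0.436). The interaction of Cdkn1c was 0.86 with the mean over probesets. Rbl1, a relative of the retinoblastoma protein, was at -0.42.

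Among astrocyte genes 0 of 22 passed, 4 were positive at an unadjusted p under 0.05 (all genes: 3.53%) and the median was 0.17. EGF lowered 11 of the 22 in Cic+/+ and 8 in Cic-/- (all genes: 3.28% and 1.6%). The calcium-binding protein gene S100b fell with EGF in both (-2.14 ± 0.15 and -1.22 ± 0.17, adjusted p = 9.71e-05 and 0.00509), with differences that did not overlap and an interaction of 0.92 ± 0.22 (adjusted p = 0.378). Gja1, connexin 43, fell in Cic+/+ (-0.88 ± 0.13, adjusted p = 0.00334) and was at -0.24 ± 0.15 in Cic-/- (interaction 0.65 ± 0.19, adjusted p = 0.538). Id2, an inhibitor of bHLH factors, was at 0.67 ± 0.23 (adjusted p = 0.651). The fourth, Gfap, the astrocyte filament, lay at 1.03 (0.62 without clone 6) and was named after its values were seen.

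Among 23 neuroblast and neuron genes 0 passed, and the median was -0.14. At an unadjusted p under 0.05, 3 were negative and 0 positive (all genes: 2.83% and 3.53%). Dcx, doublecortin, a microtubule protein of migrating neuroblasts, fell with EGF in both genotypes. Its differences were -0.65, -1.63, -1.67 and -0.95 in Cic+/+ and -2.06, -3.51 and -2.65 in Cic-/- (effects -1.23 ± 0.23 and -2.74 ± 0.27, adjusted p = 0.0142 and 0.00127). The interaction of Dcx was -1.52 ± 0.36 (adjusted p = 0.371). Syt1, a calcium sensor of synaptic vesicles, rose with EGF in Cic+/+ (1.03 ± 0.18, adjusted p = 0.00931) and was at -0.21 ± 0.21 in Cic-/- (interaction -1.23 ± 0.27, adjusted p = 0.333). The interaction of Syt1 was -0.72 with the mean over probesets and -0.47 with the brightest one. Cd24a, a surface glycoprotein of neuroblasts, was at -0.65 ± 0.25 (adjusted p = 0.717). Of 22 neural stem cell and radial glia genes 0 passed and 1, Prom1, had an unadjusted p under 0.05 (-0.53). The mean level of that list was 9.49 to 9.71 in all 14 arrays.

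**Figure D5:**
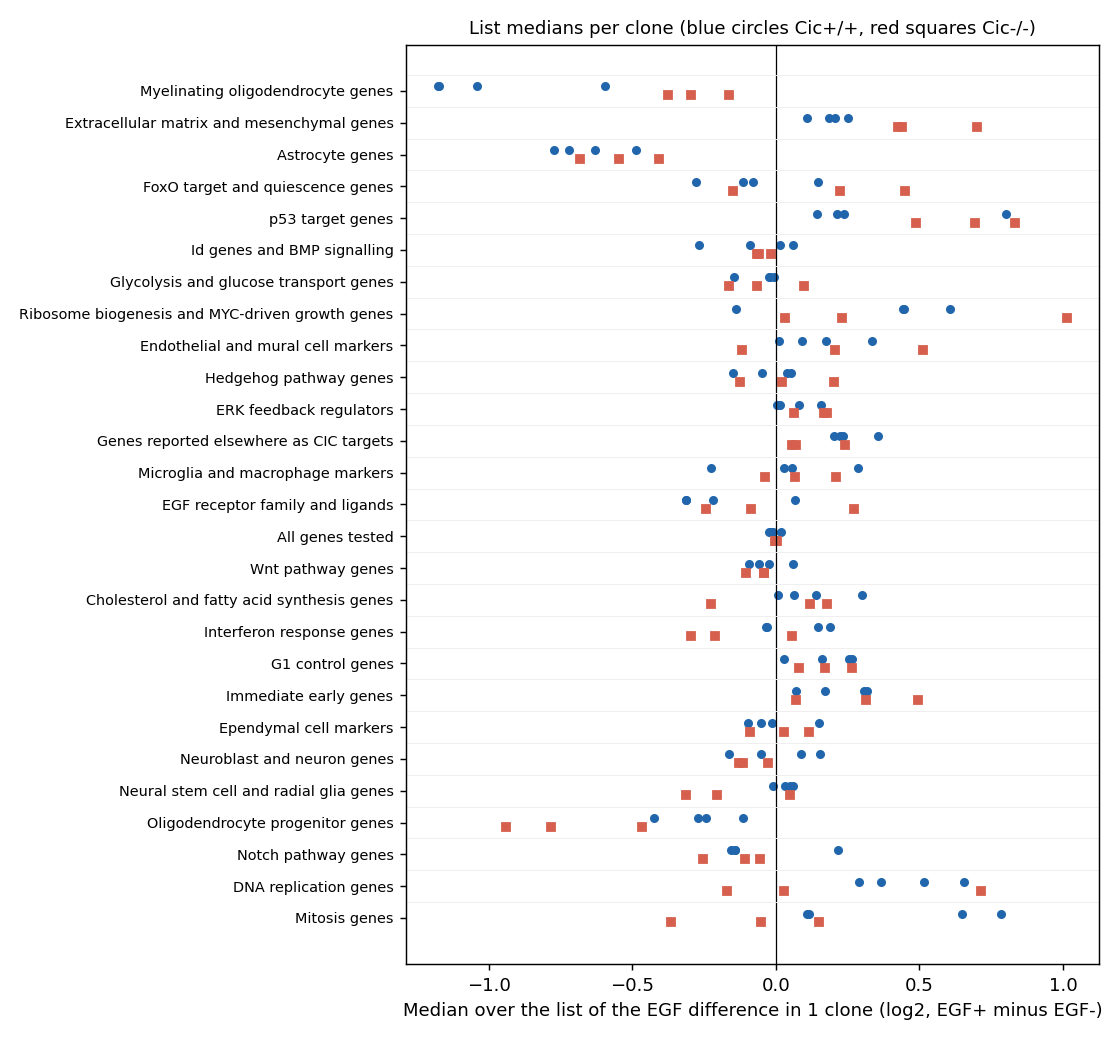
Median EGF difference (log2, EGF+ minus EGF-) over the tested members of each of 26 gene lists, with 1 point per clone, blue circles for Cic+/+ and red squares for Cic-/-. The clones of the genotypes separate in 3 lists and overlap in the other 23. The 3 are the myelinating oligodendrocyte list (-1.18 to -0.60 against -0.37 to -0.16), the oligodendrocyte progenitor list (-0.42 to -0.12 against -0.94 to -0.47) and the extracellular matrix list (0.11 to 0.25 against 0.42 to 0.70). Among all single genes, 3.41% do not overlap in the positive direction and 2.84% in the negative. Some lists share members, and all were written with earlier results known, so this count is weak evidence. In no list do all clones of 1 genotype lie above 0 and all clones of the other below it.

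The pathway that links EGF to capicua showed no passing interaction. Over all genes 3.53% were positive and 2.83% negative at an unadjusted p under 0.05. Of 20 ERK feedback regulators 0 passed. The phosphatase gene Dusp9 was positive at an unadjusted p under 0.05 (0.85 ± 0.24, adjusted p = 0.467) and the receptor antagonist Il17rd negative (-0.81). Of 23 genes reported elsewhere as targets of capicua 0 passed, the median was 0.04, and Pdgfra and Etv1 were negative at an unadjusted p under 0.05. Etv1, an ETS factor, had differences of 0.90, 0.95, 0.33 and -0.74 in Cic+/+ and -1.18, -1.32 and -0.77 in Cic-/-. Clone 4 lay close to clone 7, and the interaction was -1.45 ± 0.37 (adjusted p = 0.436). Its probesets were divided, with 2 of 11 below -1 and 3 above 0, and the median of their own interactions was -0.23. The related Etv4 and Etv5 were at 0.21 ± 0.28 and -0.15 ± 0.17, with 95% intervals from -0.40 to 0.81 and from -0.52 to 0.22. Egfr, the receptor itself, was at -0.01 ± 0.22 (95% interval from -0.49 to 0.48). Atxn1 and Atxn1l, which encode partners of capicua, were at -0.06 ± 0.25 and 0.02 ± 0.17, and Cic was at 0.20 ± 0.18. Of 13 tested genes of the EGF receptor family and its ligands 2 were positive at an unadjusted p under 0.05. Tgfa, transforming growth factor alpha, fell with EGF in Cic+/+ (-1.18 ± 0.23, adjusted p = 0.0153) and was at -0.13 ± 0.26 in Cic-/- (interaction 1.05 ± 0.35, adjusted p = 0.626). The interaction of Tgfa was 0.42 with the mean over probesets. The other was the receptor gene Erbb3 at 0.56. Of 29 immediate early genes 0 passed and 1, Egr1, had an unadjusted p under 0.05 (-0.59).

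Extracellular matrix and mesenchymal genes had 0 of 28 passing and a median of 0.21. At an unadjusted p under 0.05, 6 were positive and 1 negative (all genes: 3.53% and 2.83%). By clone the list median of the EGF difference was 0.21, 0.25, 0.19 and 0.11 in Cic+/+ and 0.70, 0.44 and 0.42 in Cic-/-. The mean level of 16 endothelial and mural genes was 5.40 to 5.44 in Cic-/- arrays with EGF and 5.09 to 5.35 in Cic+/+ arrays. In Cic-/- arrays without EGF it was 5.06 to 5.48, a range that includes the values with EGF. The part of this small difference in the values of the matrix list was not tested. Col6a2, a collagen VI chain, rose with EGF in Cic-/- (0.98 ± 0.18, adjusted p = 0.0178) and was at 0.03 ± 0.15 in Cic+/+ (interaction 0.95 ± 0.23, adjusted p = 0.387). The contractile gene Tagln rose in Cic-/- (0.94 ± 0.21, adjusted p = 0.0397) and was at -0.07 ± 0.18 in Cic+/+ (interaction 1.01 ± 0.28, adjusted p = 0.467). Its own difference was 1.38 and 1.20 in clones 5 and 6 and 0.24 in clone 7. Thbs2, thrombospondin 2, was the negative member, and it rose with EGF in Cic+/+ (1.28 ± 0.17, adjusted p = 0.002) against 0.34 ± 0.19 in Cic-/- (interaction -0.94 ± 0.25, adjusted p = 0.453). Acta2, smooth muscle actin, named after its values were seen, was at 1.42, and at 0.72 without clone 6. The p53 target list had 0 of 22 passing, a median of 0.17, and EGF raised 6 members in Cic+/+ and 10 in Cic-/- (all genes: 2.3% and 1.39%). The death receptor gene Fas rose in Cic-/- (1.01 ± 0.21, adjusted p = 0.031) and was at 0.22 ± 0.18 in Cic+/+ (interaction 0.79 ± 0.28, adjusted p = 0.664). The interaction of Fas was 0.29 with the mean over probesets and 0.20 with the brightest one. Gdf15, a stress-induced ligand, was the other member at an unadjusted p under 0.05 (0.60 ± 0.27, adjusted p = 0.779).

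In the remaining signalling and metabolic lists 0 genes passed. The counts that follow are at an unadjusted p under 0.05, where 3.53% of all genes were positive and 2.83% negative. Of the Notch list 2 of 26 were positive at an unadjusted p under 0.05, the ligands Jag1 and Jag2 (0.84). Jag1 rose with EGF in Cic-/- (1.28 ± 0.21, adjusted p = 0.0118) and was at 0.27 ± 0.18 in Cic+/+ (interaction 1.00 ± 0.28, adjusted p = 0.467). Of 22 Id and BMP genes 3 were positive and 2 negative, namely Bmp4, Id2 and Smad6 (0.56) and Bmp7 (-0.64) and Bmpr2 (-0.47). Of 38 Wnt genes 1 was positive (Tcf7l1, 0.54) and 3 negative, the receptor-removing ligase Rnf43 (-0.84 ± 0.20, adjusted p = 0.378), Wnt7a (-0.59) and Wnt5a (-0.67, and -0.36 without clone 5). Of 25 interferon response genes 1 was positive (Ifit3, 0.62) and 3 were negative, Usp18 (-1.001), Ifi44 (-0.93) and Gbp3 (-0.64). Smad6, Bmpr2, Wnt5a and Gbp3 were named after their values were seen. Of 25 cholesterol and fatty acid synthesis genes 1, mevalonate kinase (Mvk), was negative (-0.56). The 30 ribosome biogenesis, 22 glycolysis and 12 Hedgehog genes had none at an unadjusted p under 0.05, and the 26 FoxO target and quiescence genes had 1, Cdkn1c, which is also on the G1 list.

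Lists of markers of other cell types that a subventricular culture could hold had low mean levels in all groups. The mean level lay between 4.97 and 5.50 for 15 microglial genes, between 5.06 and 5.48 for 16 endothelial and mural genes and between 5.04 and 5.40 for 11 ependymal genes. Of these 42 genes 5 had a mean level above all array medians, namely Notch3 (9.02) and Flt1 (8.12) of the endothelial and mural list, Cd68 (7.32) of the microglial list, and Foxj1 (6.78) and Rarres2 (6.68) of the ependymal list, which were named after their values were seen. Among the tested members 0 passed. Over all genes 3.53% were positive and 2.83% negative at an unadjusted p under 0.05. At an unadjusted p under 0.05 there were the microglial integrin Itgam (0.77), the endothelial and mural genes Cdh5 (1.13), Anpep (0.47) and Pecam1 (-0.62), and the ependymal genes Rsph1 (0.51) and Ccdc153 (-0.94). With the brightest probeset all 6 of these changed sign. For the myelin list, the part of these other cell types was not tested.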

How the data were processed

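Biotin-labelled RNA of 14 neural stem cell cultures was hybridised to Affymetrix arrays. The deposited values are log2 levels per probeset, which the authors made with RMA per the submitters' processing notes. Neither the version of RMA nor the build behind the array's annotation was stated in the labels, so coordinates are printed for RefSeq sequences alone (GRCm38.p6). Of 269751 probesets, the 233753 that name 1 gene were used. The 5106 naming several genes and the 30892 naming none were left out. Symbols were matched to RefSeq (20875 as given, 2189 through a synonym, 88 kept), which gave 23152 genes with a median of 8 probesets. The lowest 25% by mean level, under 4.40, were set aside as dim (5788 genes), which left 17364.

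For each clone the EGF- array was subtracted from the EGF+ array. The 7 differences were fitted with limma 3.58.1 in R 4.3.3 (tables read with the package data.table, version 1.17.8), with 5 residual and 5.59 prior degrees of freedom, with Benjamini-Hochberg adjustment over all genes tested. Taking differences within clones holds the clone as a block. The labels give both arrays of a clone 1 number and 1 animal. Deviations from the group means correlated within clones at 0.156 to 0.616, in each clone above the correlation with any other clone of its genotype. In clone 6 the margin was small (0.156 against 0.12). Exact permutation tests were two-sided. Figures were drawn with Python 3.11.15, pandas 2.3.3 and matplotlib 3.10.9, and the fit was tested on simulated data.

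The comparison, its rule and the 26 gene lists (598 genes, of which 557 were tested, 21 were dim and 20 were not measured as 1 gene) were chosen with earlier results of these data known. Named genes are the passing ones, then those with the smallest p, at least 3 probesets and no overlap between genotypes up to 8 per direction, up to 3 members of each list, the genes closest to the leading one, and Cic, Atxn1, Atxn1l, Etv1, Etv4, Etv5, Egfr and Xist. Genes outside this rule are marked as such where they appear. The alternatives were no block or a random clone block, other ways of joining probesets, other dim filters, another variance prior, other scalings, a 1.5-fold minimum and leaving out each clone.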

Additional observations from a re-analysis of the deposited data

Results flagged for a closer look

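For 3 genes the test of the interaction itself passed, so that the EGF effect differed between genotypes: Enpp6 (3.50), Mag (2.41) and Tmem163 (1.53). They are described above with their values by clone.

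Among 166 sets of 4 Cic+/+ values, 11 held a clone that stood apart from the other 3 (by Dixon's criterion, which chance meets in about 1 of 20 sets). Clone 4 stood apart in the EGF difference of Cbln2 (-0.97), in the level of Xist with and without EGF (4.73 and 3.83), and in the median difference of the glycolysis list (-0.15). Clone 1 stood apart in the level of Akap6 with EGF (6.79), in the levels of Etv4 and Etv5 without EGF (7.89 and 11.51), and in the median difference of the p53 target list (0.80) and of the Notch list (0.22). Clone 2 stood apart in the difference of Syt1 (1.45), and clone 3 in the level of Pdgfra without EGF (9.32). Sets of 3 Cic-/- values were not examined in this way.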

How the results depend on the processing

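The count of 3 passing genes was 2 with no dim filter, a trended robust prior, centred arrays, quantile normalization and a 1.5-fold minimum, each time Enpp6 and Mag. It was also 2 with a stricter dim filter, under which Cdk18 and Tmem163 passed and Enpp6 and Mag were set aside as dim. It was 1 (Enpp6) without the replicate block, 7 with the clone as a random replicate block (Enpp6, Mag, Tmem163, Cbln2, Cdk18, Myrf and Dock9), 10 with the mean over probesets and 0 with the brightest probeset, and the cause was not tested. Leaving out 1 clone gave 2 to 5 genes, always with Enpp6 and Mag, and the highest count came without clone 7. Without the block Mag had an adjusted p of 0.0874 and Tmem163 of 0.267. The myelin list median was 0.39 to 0.60 over the settings with all clones and 0.52 to 0.80 with 1 clone left out, highest without clone 1. Signs turned as follows, with Mobp, Tspan2, Cntn2 and Plekhb1 not examined in this way. With the mean over probesets these were Gpr17 (-0.38), Sox10 (0.10), Atxn1 (0.16), Atxn1l (-0.03) and Gdf15 (-0.031). With the brightest probeset they were Tmem163 (-0.19), Fa2h (-0.12), Opalin (-0.52), Gpr17 (-0.90), Sox10 (0.37), Itgam (-0.85), Cdh5 (-0.56), Anpep (-0.49), Pecam1 (0.25), Rsph1 (-0.091), Ccdc153 (0.43), Erbb3 (-0.24), Jag2 (-0.43), Smad6 (-0.19), Gdf15 (-0.46), Atxn1 (0.17), Atxn1l (-0.024) and Etv5 (0.083). With the median of the probesets' own estimates they were Gpr17 (-0.50), Sox10 (0.027), Atxn1 (0.17) and Atxn1l (-0.024), and with quantile normalization Egfr (0.002). With 1 clone left out the ranges that crossed 0 were Gpr17 (-0.15 to 0.64), Sox10 (-0.36 to 0.005), Neu4 (-0.011 to 0.31), Olig1 (-0.26 to 0.042), Olig2 (-0.24 to 0.022), Atxn1 (-0.27 to 0.17), Atxn1l (-0.005 to 0.075), Egfr (-0.24 to 0.11) and the Notch list median (-0.20 to 0.001). None of these besides Tmem163 had passed. Without 1 clone the interaction shrank by over 1.5 times in 12 of the 80 described genes with an unadjusted p under 0.05, which besides those given above were Il17rd (-0.51 without clone 1), Ccdc153 (-0.59 without clone 2), Tgfa (0.67), Ifit3 (0.40) and Gdf15 (0.31) without clone 5, Opalin (0.61 without clone 6), and Prom1 (-0.34) and Cdh5 (0.71) without clone 7, and Opalin grew to 1.49 without clone 7. Signal near the dim limit restricts what can be said of Enpp6 and Mag in Cic-/-.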
